A study of Arabidopsis thaliana with 30 samples.

Results

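Transcript levels in Arabidopsis thaliana Col-0 seed after 48 h of light were compared with those in dry seed, the net change from the start of the course to its last time point. The comparison used 6 of the 30 one-colour Affymetrix arrays of the study, 3 of dry seed and 3 of seed after 48 h of light, chosen by their sample titles. It covered all 22746 probe sets of the 22810 deposited that are not Affymetrix controls. Both groups were Col-0 plants, and 80 mg of seed was taken for each sample. Dry seed had been harvested and dried, for 14 days by the treatment text and 15 days by the design text, and is the 0 h sample. The seed of the other group was also sown on MS medium, kept for 48 h at 4 °C in the dark (stratification), and then kept for 48 h at 22 °C in continuous light of 100 µE. Labelling started from 400 ng of total RNA. The remaining 24 arrays held freshly harvested seed and the time points between both ends, and they entered the fit for the spread and the description of the course.

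The 2 ends differ in water, cold, warmth, light and time together, and the part of each in a difference cannot be told apart here. Whole seed was extracted, so that fewer cells of a type and less RNA per cell cannot be told apart either. The labels do not say whether replicates of a group came from separate cultures, so that the p-values may reflect technical spread alone. The precision is limited by 3 arrays a group.

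As background, a dry seed holds the transcripts it stored as it matured: those of storage proteins, of the oleosins that coat oil bodies and of the late embryogenesis abundant (LEA) proteins that protect cells as they dry. Once water is taken up the embryo lives on its stored oil and protein, grows out of the seed coat by cell elongation, and in light builds chloroplasts that take over its supply of carbon. The genome of the plastid and that of the mitochondrion hold some of the genes for photosynthesis and respiration, and the nucleus holds the rest.

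Of the 22746 probe sets, 7990 changed, 35.1% of those tested, with 4477 higher at 48 h of light (19.7%) and 3513 lower (15.4%). A probe set counted as changed when its log2(intensity + 16) differed by at least 1 with an adjusted p under 0.05 (limma, Benjamini-Hochberg). The added 16 makes differences of dim probe sets smaller than their ratio of intensities. The difference reached 4-fold for 2431 probe sets that were higher and 1692 that were lower, and a log2 difference of 6 for 135 and 189. A total of 14756 probe sets did not pass, and for 13353 of all probe sets the 95% interval of the difference lay within 1 log2 unit of 0. Many of these were dim at both ends, since 9107 probe sets had a mean intensity under 16 in both groups.

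The most abundant transcripts of the dry seed were nearly all lower at 48 h of light. Of the 61 probe sets with a mean intensity over 10000 in dry seed, 58 were lower at 48 h of light, 0 were higher, and 54 had a mean under 100 there. Of the 31 probe sets over 10000 at 48 h of light, 29 were higher than in dry seed. Both sets were chosen by a high level in the group named, which partly fixes the direction of these counts. The highest intensity per array was 29147 to 31428 in the groups compared, which left the brightest probe sets little room to be higher in the other group. This ceiling does not set how far a probe set fell. Among the 953 probe sets of 1000 to 10000 in dry seed 65.7% were lower and 13.4% higher, while of the 12331 under 16 in dry seed 18.8% were higher. With 16 added, probe sets under 16 in dry seed could not fall by enough to count as changed. A further count took probe sets that went from under 100 in dry seed to over 1000 at 48 h of light, and found 293.

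**Figure D1:**
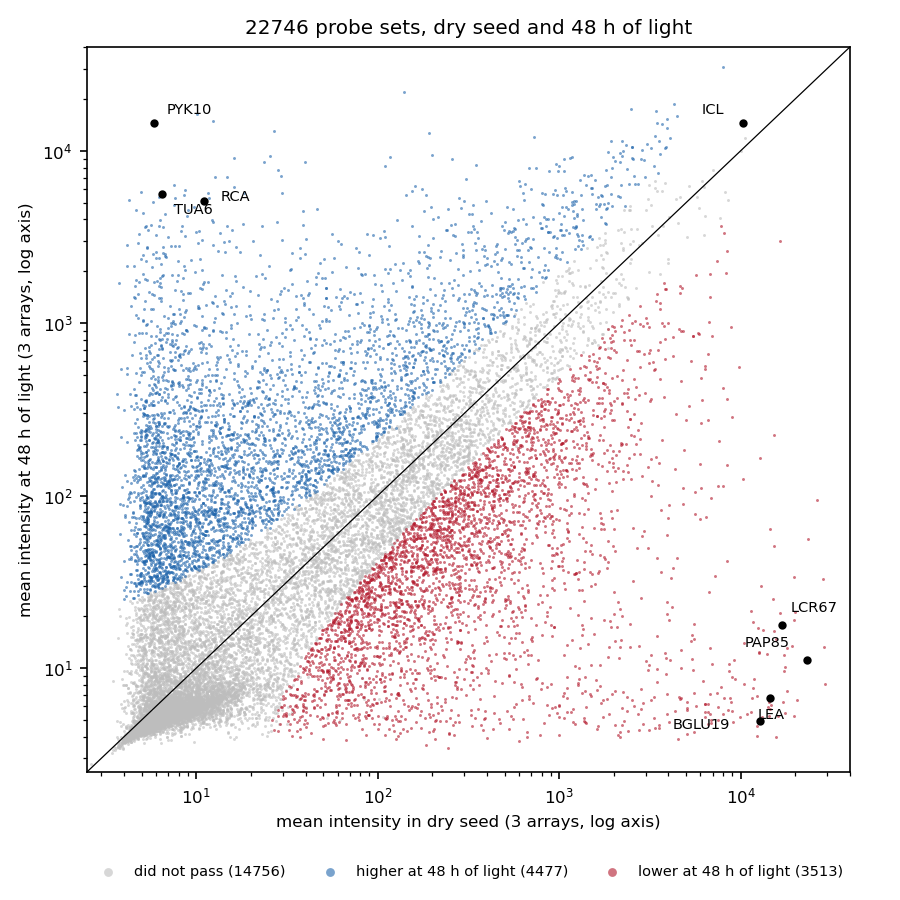
Mean intensity of each probe set in dry seed (x axis, log scale) and at 48 h of light (y axis, log scale), each the mean of 3 arrays, with 4477 probe sets that were higher in blue, 3513 that were lower in red and 14756 that did not pass in grey. The line marks equal intensity. PAP85, LEA, BGLU19 and LCR67 lie at the lower right, PYK10, TUA6 and RCA at the upper left, and ICL close to the line.

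Replicates agreed closely in both groups. The lowest correlation between arrays of a group was 0.985 in dry seed and 0.994 at 48 h of light. Dry seed had the lowest such value of the 10 groups, and the largest median SD on the log2 scale, 0.087. The standard errors rest on the spread of all 10 groups and may be too small for dry seed. The 2 groups differed in their low intensities: array medians were 12.3 to 12.7 in dry seed and 18.5 to 19.4 at 48 h of light, and 54.3 to 54.6% of probe sets were under 16 in dry seed against 47.5 to 48.0%. The mean log2 difference of 3' over 5' probe sets of control genes, a sign of RNA integrity, moved in both directions. In 1 set of controls it was 0.22 in dry seed and 0.51 at 48 h of light for actin, -0.39 and -0.30 for GAPDH, and -0.75 and -0.94 for ubiquitin. In the other set it was 3.25 and 4.22 for actin, 2.58 and 1.94 for GAPDH, and 0.97 and 1.32 for ubiquitin. Their part in the results was not tested. The median log2 difference over all probe sets was -0.05, and -0.35 with median centring of the arrays, and a change can be read against either value.

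The labels call every sample seed, and the sample at 48 h of light germinating seed. Markers of a mature seed were high at 1 end and those of green tissue at the other. The 7 storage and oil body genes had a summed intensity of 50763 to 55873 per array in dry seed, against 114 to 135 at 48 h of light. Summed over 29 LEA and dehydrin genes it was 163692 to 177764 and 13938 to 14521. The 13 light harvesting and photosystem genes summed to 646 to 737 in dry seed and 20956 to 21914 at 48 h of light, and the 11 chlorophyll synthesis genes to 500 to 523 and 8681 to 9826.

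Root hair cells were marked by the expansin genes EXPA7 and EXPA18, the only 2 genes of that list with a probe set that named them, which summed to 11 to 12 in dry seed and 723 to 994 at 48 h of light. For the endosperm and seed coat the annotation left 6 genes that mark them poorly: the proanthocyanidin gene BAN was near 4 in both groups, and the sum was 10665 to 10955 in dry seed and 438 to 519 at 48 h of light. BETA-VPE made up most of the sum in dry seed, and GAMMA-VPE was the brightest of the 6 at 48 h of light. The pollen and anther list, meant as a control for other tissue, summed to 174 to 250 and then 3258 to 3416. All 6 of its 15 members that rose were genes of the RALF-like peptide family, which the list took by name, while SWEET8, ATA27, INP1 and AT59 were under 16 in both groups.

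**Figure D2:**
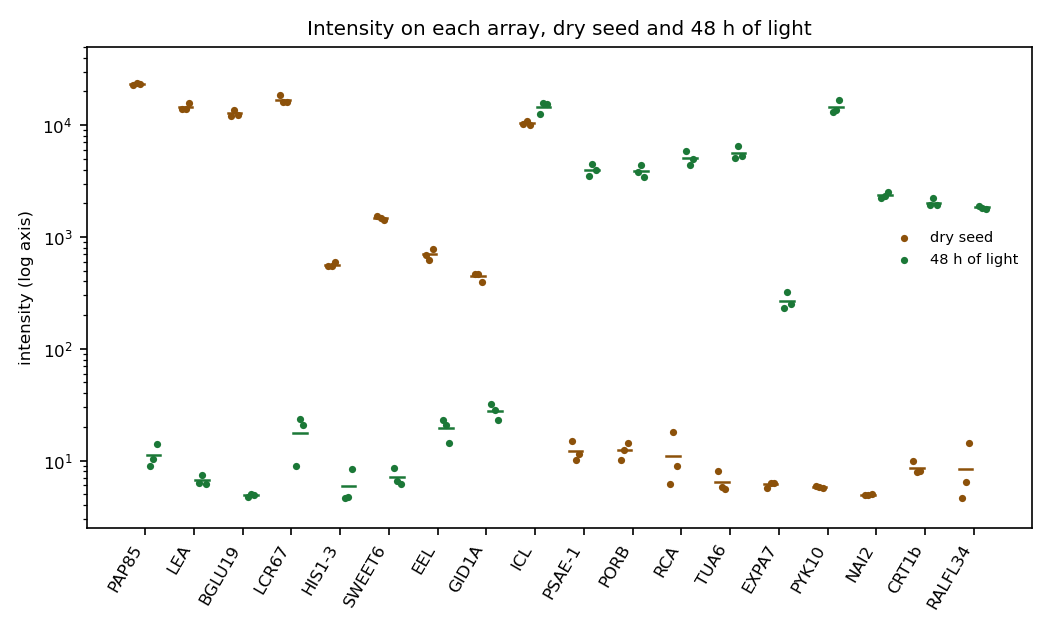
Intensity (log axis) of 18 genes on each of the 3 arrays of dry seed (brown) and of 48 h of light (green), with a line at each group's mean. The 8 genes at the left were lower at 48 h of light, ICL did not pass and the 9 at the right were higher. No gene shown has overlapping groups.

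Transcripts of reserve proteins fell. All 7 storage and oil body genes fell, with a median difference of -6.36 against -0.05 for all probe sets and 15.4% lower among all. PAP85, which encodes a vicilin-like storage globulin, read 22883, 23618 and 23236 on the arrays of dry seed and 8.92, 10.4 and 14.2 at 48 h of light. Its difference of -9.75 ± 0.18 (log2 ± SE, adjusted p = 1.12e-22) was the largest fall of any gene named by a probe set of its own. The oleosin gene OLEO3 fell less, from 640 to 52.2 on average (-3.28). The other 5 genes were put on the list by locus number and have no name in the annotation. Among them AT2G28490 read 11219, 12504 and 14099 in dry seed and 10.4, 9.4 and 17.5 at 48 h of light, and AT3G01570 12859, 13921 and 13306 and then 16.3, 17.5 and 15.9.

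Of 29 LEA and dehydrin genes 18 fell (62.1%), 4 rose (13.8%) and 7 did not pass, with a median of -6.15. Of all probe sets 15.4% fell and 19.7% rose. The dehydrin gene LEA (AT2G21490) read 14023, 13822 and 15907 in dry seed and 6.34, 7.46 and 6.22 at 48 h of light (-9.33 ± 0.14, adjusted p = 4.06e-24). AT3G15670 had the highest dry seed mean of the list, 28559 ± 1401 (SD, n = 3), and 32.7 ± 24.3 at 48 h of light, with the second array of light at 60.8 and the others under 20. AtLEA4-1 fell from 16436 to 20.8 on average and LEA18 from 14583 to 63.8. LTI30, a dehydrin gene first known from cold-treated plants, fell from 12795 ± 799 to 165 ± 10.7 (-6.15).

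Not every protective protein followed. The 4 LEA-type genes that rose were AT1G54410 (AtHIRD11, a small dehydrin), COR47, AT2G44060 (LEA26) and AT2G03850. AT1G54410 read 237, 173 and 186 in dry seed and 9723, 8814 and 9730 at 48 h of light (5.47 ± 0.12, adjusted p = 7.44e-21), which made it the brightest gene of the list at that end. COR47, a cold-induced dehydrin, read 5.35, 5.75 and 24 in dry seed, the third array standing above the others, and 897, 838 and 834 at 48 h of light (5.04). AT2G44060 rose by 4.84. DI21, a drought-induced gene, read 684, 475 and 403 and then 471, 587 and 602, so its groups overlapped (0.11 ± 0.15). Of 5 genes on the cold response list LTI30 and COR27 fell (40%), COR47 rose (20%) and 2 did not pass. The shares of all probe sets were 15.4% and 19.7%. COR27 read 544, 468 and 435 in dry seed and 16.6, 20.4 and 20 at 48 h of light.

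Defensins, small antimicrobial peptides rich in cysteine, went both ways. Of 15 genes of the family 5 fell (33.3%, against 15.4% of all probe sets), 3 rose (20%, near the 19.7% of all) and 7 did not pass. LCR67, also called PDF1.1, read 18586, 16019 and 16207 in dry seed and 8.88, 23.7 and 20.7 at 48 h of light (-9.00 ± 0.14, adjusted p = 5.02e-24). PDF2.1 fell from 8816 to 6.36 on average (-8.63) and PDF1.2b from 665 to 4.01 (-5.09). The probe set of PDF1.2b is of a type (x_at) that can also bind related transcripts, so its signal need not be its own. PDF1.2 had means of 17 and then 9.41 and did not pass (-0.38). LCR68 rose from 183, 155 and 166 to 1879, 2569 and 2256 (3.60), LCR69 from 353 to 3384 (3.21) and PDF2.5 from 6.9 to 252 (3.54), so that different members of the family were high at either end.

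Other genes at high level in dry seed fell to the floor. BGLU19, of the β-glucosidase family, read 12062, 13709 and 12419 and then 4.77, 5.05 and 4.96 (-9.25 ± 0.08, adjusted p = 1.61e-28). The 15 largest falls among genes with a probe set of their own ran from -9.75 to -9.07. Beside PAP85, LEA and BGLU19 they comprised M10, M17 and 10 genes known by locus number, of which AT3G15670 and AT3G17520 are on the LEA list. That list was drawn up by name and locus number, so further LEA genes may be among the rest, M10 and M17 included. BETA-VPE, a vacuolar processing enzyme that cleaves storage protein precursors, fell from 10524, 10229 and 10201 to 121, 146 and 107 (-6.21 ± 0.09). Its relative GAMMA-VPE read 356, 366 and 379 and then 256, 256 and 220, short of the size threshold (-0.56). DELTA-VPE rose from 7.41 to 72.6 (1.92, and 0.93 with 64 added in place of 16). Between the ends its mean was higher, 481 at 12 h of light and 932 at 24 h.

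SWEET6, of a family of sugar transporters, fell from 1542, 1487 and 1408 to 8.55, 6.57 and 6.22 (-6.02), and SWEET1 fell by 3.29. Of 14 SWEET genes these 2 fell (14.3%), SWEET11 rose by 2.30 (1 gene, 7.14%) and 11 did not pass. Of all probe sets 15.4% fell and 19.7% rose. TET4, a tetraspanin of the membrane, fell from 1956 to 7.11 (-6.42), and 4 of the 15 tetraspanin genes rose (26.7%, against 19.7% of all probe sets), TET7 by the most (3.91). FDH, the formate dehydrogenase gene, fell from 2601, 3036 and 3217 to 66.1, 57.6 and 63.2 (-5.24).

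Genes of the ATG8 family of autophagy fell. Autophagy delivers cell contents to the vacuole, and the ATG8 proteins mark its membranes. Of 10 genes 9 fell and 0 rose, with a median of -2.52, where 15.4% of all probe sets fell. The genes that fell were the 9 of the ATG8 family named by a probe set, and ATG3 was the only other gene on the list. APG8H read 6322, 6362 and 5790 in dry seed and 321, 404 and 344 at 48 h of light (-4.06 ± 0.10), and ATG8H 2517, 2202 and 2552 and then 163, 143 and 190 (-3.76 ± 0.14). ATG3, the enzyme that couples ATG8 to lipid, read 321, 333 and 374 and then 171, 243 and 180 and did not pass (-0.76, and -1.06 after median centring).

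Of the genes that turn stored oil into sugar only 4 were named by a probe set, and 0 rose. ICL, isocitrate lyase of the glyoxylate cycle, was among the brightest genes at both ends, at 10190, 10890 and 9959 and then 12614, 15698 and 15308. Every array of 48 h of light was above every array of dry seed, but the difference of 0.48 ± 0.08 was below the size threshold. SDP1, a lipase of the oil body, fell from 446, 425 and 405 to 109, 116 and 92.4 (-1.86), and AIM1, of fatty acid β-oxidation, from 1761, 2399 and 2054 to 595, 413 and 468 (-2.04).

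The nuclear genes of the photosynthetic apparatus rose together. Of 13 light harvesting and photosystem genes 11 rose, 1 fell and 1 did not pass, with a median of 3.97, where 19.7% of all probe sets rose. PSAE-1, a subunit of photosystem I, read 15, 10.1 and 11.4 in dry seed and 3498, 4460 and 3969 at 48 h of light (7.15 ± 0.09, adjusted p = 1.35e-25). ATPC1, the γ subunit of the chloroplast ATP synthase, rose from 6.56 to 2775 on average (6.95), PSBY of photosystem II from 15.7 to 3485 (6.79) and PSAN of photosystem I from 5.27 to 2305 (6.76). The antenna genes LHCB4.1 and LHCB4.2 started from a level above the floor. LHCB4.1 read 154, 174 and 211 in dry seed and 4898, 4178 and 4266 at 48 h of light (4.52). The 1 gene that fell was ATPC2, a second γ subunit gene, from 78.7, 109 and 117 to 17.6, 20.9 and 13.8 (-1.80 ± 0.12), opposite to ATPC1.

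Chlorophyll synthesis genes rose in 7 of 11 cases (63.6%, against 19.7% of all probe sets) and fell in 0, with a median of 2.97. PORB, the enzyme that reduces protochlorophyllide in light, read 10.1, 12.4 and 14.5 in dry seed and 3847, 4376 and 3444 at 48 h of light (7.10 ± 0.11, adjusted p = 3.24e-24). CHLM, of the magnesium branch, rose from 41.1 to 1462 (4.70), and HEME2, of the common porphyrin path, from 51.9 to 1062 (4.01). AT1G74470, geranylgeranyl reductase by its synonym, which makes the tail of chlorophyll, rose from 17.2, 17.5 and 19.3 to 4491, 3227 and 3534 (6.78). HEMA2, of the first step, read 99, 76.2 and 55.7 and then 36.4, 31.4 and 29.2. Its difference of -0.92 missed the size threshold, but was -1.09 without replicate 3 of dry seed, -1.25 after quantile normalization and -1.22 after median centring.

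Of 6 genes of carbon fixation and photorespiration 5 rose (83.3%) and 1 fell (16.7%), against 19.7% and 15.4% of all probe sets. RCA, Rubisco activase, read 6.19, 18 and 8.95 in dry seed and 5897, 4425 and 4978 at 48 h of light (7.58 ± 0.15, adjusted p = 5.07e-22). The Calvin cycle genes SBPASE and PRK rose by 5.99 and 5.91, from 8.23 and 6.37 on average to 1533 and 1337. HPR, hydroxypyruvate reductase of photorespiration, was already at 230, 184 and 193 in dry seed and rose to 1340, 1008 and 1102 (2.41). AT1G80380, placed by locus number, fell from 779 to 240 (-1.63). Its lowest group mean lay between both ends, 52.2 at 48 h of stratification.

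Genes that assemble photosystems and cytochromes were mixed, with 6 of 14 higher (42.9%) and 3 lower (21.4%). Of all probe sets 19.7% rose and 15.4% fell. TROL, of the thylakoid membrane, rose from 28.4, 25.9 and 22.8 to 1586, 1312 and 1235 (5.06), and the light-harvesting-like genes LIL3:1 and LIL3:2 by 4.74 and 3.57. YLMG1-2 fell from 692, 661 and 695 to 77.5, 61 and 78.8 (-2.99) and CcdA, of thylakoid cytochrome assembly, from 1345, 1508 and 1498 to 234, 203 and 210 (-2.66). Of 15 genes for the editing and maturation of organelle RNA 4 rose, by 1.04 to 1.60 (26.7%, against 19.7% of all probe sets), and 0 fell, and 0 of them was called with 64 added to the intensities. Starch genes rose in 5 of 10 cases (50%, against 19.7% of all probe sets) and fell in 0. APL3, of ADP-glucose synthesis, rose from 10.3, 17.8 and 11.1 to 643, 656 and 607 (4.49). The branching enzyme gene SBE2.2 rose from 5.37 to 282 (3.80).

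**Figure D3:**
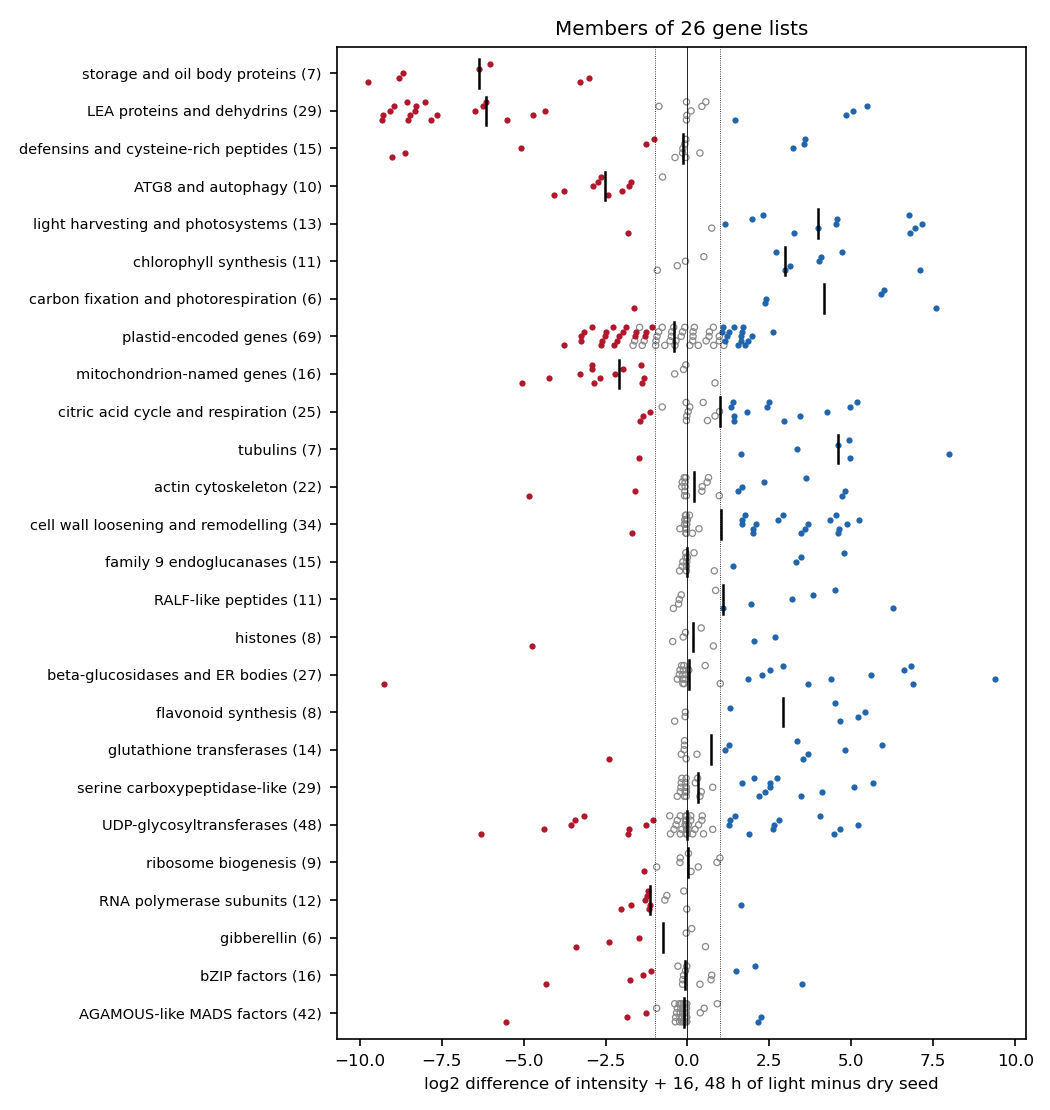
Log2 difference (48 h of light minus dry seed, 16 added to each intensity) of every member of 26 gene lists, with the number of genes in brackets. Filled blue points rose, filled red points fell, open points did not pass, the bar is the median of the list and dotted lines mark a difference of 1 in either direction. Storage, LEA and ATG8 genes lie mainly at the left, and light harvesting, chlorophyll and tubulin genes mainly at the right.

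Genes of the plastid genome went both ways. Whether the labelling took up organelle transcripts as fully as nuclear ones was not tested. Values of plastid and mitochondrial genes are therefore changes of signal, which need not follow transcript amount. Of 69 genes 15 rose, 20 fell and 34 did not pass, shares of 21.7% and 29.0% against 19.7% and 15.4% of all probe sets. These counts rest on arrays that stood apart. The mean log2(intensity + 16) over the 69 genes was 9.39, 8.03 and 7.25 on the 3 arrays of dry seed, a range of 2.14, and 8.03, 7.53 and 7.78 at 48 h of light, so the groups overlapped. Without replicate 1 of dry seed 20 rose and 10 fell, without replicate 3 of dry seed 9 rose and 30 fell, and with only the 6 arrays compared in the fit 6 rose and 11 fell.

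Of the 69 genes 35 had groups that did not overlap, against 85.4% of all probe sets. Of these 10 were higher, 7 of them called, and 25 lower, 18 of them called. The photosystem II core gene psbA read 738, 295 and 310 in dry seed and 25, 28 and 32.4 at 48 h of light (-3.26 ± 0.29, adjusted p = 6.59e-10). The ribosomal protein gene rps15 fell from 2424, 1044 and 516 to 79.6, 49.5 and 69.1 (-3.78 ± 0.49). In the other direction atpB, of the ATP synthase, rose from 3730, 3839 and 2527 to 15648, 9555 and 11465 (1.85 ± 0.19), and rpl16, of the ribosome, from 473, 218 and 141 to 2413, 1050 and 1549 (2.61 ± 0.42). psbM was bright at both ends and did not pass, at 11698, 9677 and 10327 and then 11189, 11996 and 12404.

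rbcL, which encodes the large subunit of Rubisco, read 330, 59.3 and 18.1 in dry seed and 368, 273 and 282 at 48 h of light. Its call (1.74 ± 0.67, adjusted p = 0.0225) was lost without array 2 (adjusted p = 0.0697) or array 3 (0.184) of dry seed, without the first array of 48 h of light (0.0621), and with only the 6 arrays in the fit (0.131). By complex, named after the values were seen, 6 of the 10 ndh genes of the plastid NADH dehydrogenase-like complex fell and 0 rose, but 2 fell and 2 rose without replicate 1 of dry seed. Of the 6 atp genes 3 rose and 0 fell, with the same counts without that replicate, but 2 rose and 2 fell without replicate 3 of dry seed.

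**Figure D4:**
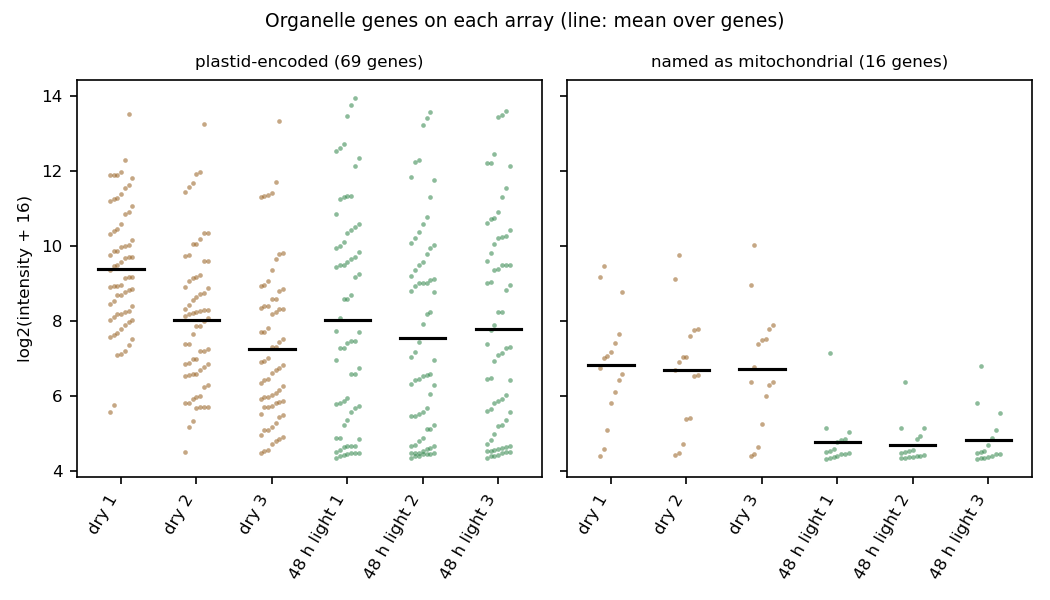
The log2(intensity + 16) of 69 plastid-encoded genes (left) and 16 genes named as mitochondrial (right) on each of the 6 arrays, dry seed in brown and 48 h of light in green. Points are genes and lines are means over genes. The plastid means of dry seed spread from 9.39 to 7.25 and overlap those of 48 h of light, and the mitochondrial means of the groups lie apart.

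Most genes named as mitochondrial fell. The annotation names 16 such genes without a locus. Of these 12 fell (75%, against 15.4% of all probe sets), 0 rose and 4 did not pass, with a median of -2.10. Their mean was 6.83, 6.69 and 6.72 on the arrays of dry seed and 4.76, 4.69 and 4.81 at 48 h of light, with no overlap. cox2, of cytochrome c oxidase, read 563, 841 and 1011 and then 7.7, 7.09 and 9.7 (-5.05 ± 0.16, adjusted p = 2.02e-18), and cox1 693, 534 and 482 and then 17, 14.2 and 13.3 (-4.23). The complex I genes nad9 and nad5 fell by 3.27 and 2.91. Near-identical copies of mitochondrial sequence lie in the nuclear genome, and these probe sets cannot tell the copies apart.

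Of 25 nuclear genes on the citric acid cycle and respiration list 12 rose (48%, against 19.7% of all probe sets) and 3 fell (12%). Their median difference was 0.98. The largest rises were those of ATP-citrate lyase, which the list counts although it belongs to neither pathway. It is a cytosolic enzyme that makes acetyl-CoA for lipids and other products. ACLA-1 read 29.2, 66.9 and 47.8 in dry seed and 2291, 2453 and 1973 at 48 h of light (5.18 ± 0.18), ACLB-1 rose by 4.97 and ACLA-2 by 4.27. ACLA-3, for the same subunit as ACLA-1 and ACLA-2, fell from 563, 558 and 563 to 273, 230 and 231 (-1.15, not called by limma's treat test against a difference of 1). Of the complex II genes, SDH2-1 rose by 3.44 by 1 probe set, and its other probe set did not pass (-0.06). NDB2, an alternative NADH dehydrogenase, fell from 231, 289 and 280 to 96.2, 94.9 and 89 (-1.36).

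Of 7 tubulin genes, whose products form microtubules, 6 rose (85.7%) and 1 fell (14.3%), against 19.7% and 15.4% of all probe sets. Their median difference was 4.58. TUA6 read 8.06, 5.81 and 5.53 in dry seed and 5118, 6524 and 5292 at 48 h of light (7.97 ± 0.10, adjusted p = 2.76e-25), a rise exceeded only by PYK10 and AT1G09310 among genes with a probe set of their own. AT1G09310 has no name in the annotation and read 10.8, 11.1 and 8.51 and then 15771, 16288 and 17300 (9.30). TUB1, TUB5 and TUB6 rose by 4.58 to 4.97. TUA1, the α-tubulin gene best known from pollen, fell from 193, 165 and 166 to 53.2, 50.4 and 51.8 (-1.49).

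Actin genes and their partners rose in 6 of 22 cases (27.3%, against 19.7% of all probe sets) and fell in 2, and 11 were under 16 in both groups. WLIM1 and WLIM2a, which bundle actin filaments, rose by 4.80 and 4.71, and ACT11 from 7.61, 8.94 and 8.26 to 272, 263 and 311 (3.62). NET3A, of a family that binds actin to membranes, fell from 905, 924 and 970 to 20.9, 19.3 and 11.9 (-4.84).

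Wall loosening genes rose in 17 of 34 cases (50%, against 19.7% of all probe sets) and fell in 1. Of the 34 genes 16 were under 16 in both groups. Expansins and xyloglucan endotransglucosylases (XTH) let the wall yield as cells elongate. XTH16 read 10.1, 9.35 and 10.3 in dry seed and 892, 1098 and 897 at 48 h of light (5.23 ± 0.19). The root hair expansin gene EXPA18 read 5.58, 5.72 and 5.72 and then 492, 675 and 692 (4.86 ± 0.11), and EXPA7 5.71, 6.35 and 6.31 and then 232, 319 and 254 (3.67). EXLA1, an expansin-like gene, fell from 291, 294 and 307 to 77.6, 74.4 and 93.4 (-1.68). With dim probe sets (mean intensity under 50 over all 30 arrays) left out of the fit, fewer genes were tested and 9 of the list rose.

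EXPA8 is a case in which both ends hide the course. It read 10.2, 17.7 and 12.9 in dry seed and 12, 17.3 and 15 at 48 h of light (0.06 ± 0.14), but its group mean was 690 at 48 h of stratification, 1806 at 12 h of light and 451 at 24 h of light. XTH19 rose between the ends (4.59) and also had its highest mean, 2650, at 12 h of light.

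Other wall genes gave smaller counts. COB, which orients cellulose deposition, rose from 87.7, 86 and 98.3 to 1033, 1111 and 1129 (3.38). Of 11 genes of wall synthesis 5 rose (45.5%, against 19.7% of all probe sets) and 1 fell. With 64 added 2 rose. Of 15 family 9 endoglucanase genes 10 were under 16 in both groups, 4 rose (26.7%, against 19.7% of all probe sets) and 0 fell, led by GH9B7, from 10.4, 6.42 and 5.3 to 594, 633 and 617 (4.76), and 1 rose with dim probe sets left out. Of 22 TBL genes, which acetylate wall polymers, 8 rose (36.4%, against 19.7% of all probe sets) and 1 fell. With 64 added 2 of them rose. Peptides of the RALF family, known to act on cell expansion, rose in 6 of 11 cases and fell in 0. The share that rose was 54.5%, against 19.7% of all probe sets. RALFL34 read 4.65, 6.43 and 14.3 in dry seed and 1903, 1820 and 1791 at 48 h of light (6.26 ± 0.11), and RALFL22 rose by 4.50. Of 8 genes on the peroxidase list 4 rose (50%, against 19.7% of all probe sets) and 0 fell. With dim probe sets left out 2 rose. PRXR1 rose from 84.8, 102 and 123 to 3224, 3110 and 3001 (4.72).

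Few genes of cell division could be followed. Of 7 genes 2 rose (28.6%, against 19.7% of all probe sets) and 0 fell. AUR1, a mitotic kinase, rose from 8.22, 5.23 and 4.98 to 124, 147 and 115 (2.70), and POLA3, of the DNA primase, from 8.88 to 98.2 (2.21). Of 8 histone genes 2 rose (25%) and 1 fell (12.5%). HTB1 and HTB2, for histone H2B, rose by 2.66 and 2.03. HIS1-3, a linker histone known from drought-stressed plants, fell from 552, 553 and 593 to 4.63, 4.72 and 8.4 (-4.74 ± 0.11, adjusted p = 1.68e-20). HTB4 was bright at both ends, at 1955, 1569 and 1732 and then 2302, 2578 and 2164 (0.42). UBC20, a ubiquitin-conjugating enzyme gene, rose from 10.6 to 681 (4.71). Of the 33 genes of ubiquitin conjugation and removal 7 fell (21.2%, against 15.4% of all probe sets) and 3 rose (9.09%). SPCH, which starts the stomatal lineage, rose from 6.9, 7.31 and 7.22 to 41, 45.8 and 44.3 (1.37, and 0.60 with 64 added).

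The largest rise among genes with a probe set of their own belonged to a defence gene. PYK10, a β-glucosidase of the ER bodies, which are stores of defence enzyme in seedlings and roots of this family, read 5.94, 5.83 and 5.7 in dry seed and 13165, 13561 and 16867 at 48 h of light (9.37 ± 0.07, adjusted p = 4.15e-29). NAI2, needed to form ER bodies, read 4.93, 4.96 and 5.02 and then 2242, 2334 and 2544 (6.83 ± 0.08). JAL33 and JAL34, jacalin-related lectins tied to PYK10, rose by 6.60 and 6.89, and NAI1, the regulator of these genes, from 7.84 to 125 (2.52). Of 27 genes of β-glucosidases and ER bodies 11 rose (40.7%, against 19.7% of all probe sets) and 1, BGLU19, fell. Of the rest 13 were under 16 in both groups. With dim probe sets left out 7 rose. The wider list of glucosinolates and their breakdown shares genes with the β-glucosidase list. Of its 33 genes 16 rose (48.5%, against 19.7% of all probe sets) and 1 fell. With dim probe sets left out 10 of them rose.

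Secondary metabolism and detoxification gave further rises. Of 8 genes on the flavonoid list 5 rose (62.5%, against 19.7% of all probe sets) and 0 fell. DFR, of anthocyanin synthesis, read 6.97, 9.61 and 8.16 in dry seed and 1087, 1053 and 939 at 48 h of light (5.42 ± 0.05). UGT78D1, which adds a sugar to flavonols, rose by 5.19 and CHIL, chalcone isomerase-like, by 4.51. The symbol CHI on that list is a chitinase gene by its synonym, and it did not pass (-0.39). Of 48 UDP-glycosyltransferase genes 11 rose (22.9%) and 9 fell (18.8%), near the 19.7% and 15.4% of all probe sets. UGT76E12 fell from 2318, 2040 and 2049 to 10.6, 15.1 and 8.65 (-6.30), and UGT72E1 fell by 4.38 where its relative UGT72E2 rose from 3.98 to 313 (4.04).

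Of 14 glutathione transferase genes 7 rose (50%, against 19.7% of all probe sets) and 1 fell. With dim probe sets left out 3 rose. GSTU20 read 8.03, 8.52 and 8.64 and then 1411, 1589 and 1456 (5.94), and GSTU16 498, 415 and 365 and then 85.3, 55.3 and 67 (-2.38). The antioxidant list, which shares genes with the glutathione transferase list, had 11 of 20 higher (55%, against 19.7% of all probe sets). It had 6 higher with 64 added, and 5 with dim probe sets left out. SAPX, a chloroplast ascorbate peroxidase, rose by 3.41. Serine carboxypeptidase-like genes rose in 11 of 29 cases (37.9%, against 19.7% of all probe sets) and fell in 0. The gene scpl35 rose from 21.3, 30.5 and 17.1 to 1978, 2036 and 1804 (5.66). CP1, a cysteine proteinase, read 13, 18.1 and 17.4 in dry seed and 5518, 7557 and 5437 at 48 h of light (7.57). Of 22 cytochrome P450 genes 1 rose and 4 fell (18.2%, near the 15.4% of all probe sets), and 2 fell with 64 added.

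Chaperone genes went both ways. CRT1b, a calreticulin of the endoplasmic reticulum (ER), read 9.97, 7.97 and 8.01 in dry seed and 1941, 2214 and 1928 at 48 h of light (6.37 ± 0.11), and ATERDJ3B 15.9, 7.55 and 8.8 and then 909, 916 and 919 (5.13). The cytosolic co-chaperone genes Hop3 and Fes1A fell, Hop3 from 474, 759 and 817 to 55.8, 34 and 26.2 (-3.68) and Fes1A from 541, 579 and 651 to 42.5, 48.5 and 36.6 (-3.37). Over 17 such genes 5 rose (29.4%, against 19.7% of all probe sets) and 6 fell (35.3%, against 15.4%). The number that rose was 2 with 64 added. The transcription factor genes BZIP28 and BZIP60, of the response to unfolded protein in the ER, fell by 1.75 and 1.10, BZIP60 by 0.98 without replicate 1 of 48 h of light.

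Among hormone genes the gibberellin receptors fell or stayed low. Gibberellin promotes germination and is read by the receptors GID1A, GID1B and GID1C. GID1A read 468, 469 and 397 in dry seed and 32, 28.4 and 22.9 at 48 h of light (-3.40 ± 0.11, adjusted p = 3.97e-18). GID1C fell from 42.6, 56.5 and 55.1 to 7.76, 8.62 and 8.06 (-1.47, and -0.68 with 64 added), and GID1B had a mean under 16 in both groups. SPY, which restrains gibberellin signalling, fell from 214, 330 and 353 to 35.6, 45 and 49.9 (-2.38). SLY1, which targets the repressors of the pathway for destruction, read 103, 63.7 and 71.7 and then 83.9, 86.5 and 89.7 (0.13).

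Of 15 auxin genes 3 rose (20%, near the 19.7% of all probe sets), 1 fell and 10 were under 16 in both groups. GH3.17 and GH3.3, which attach amino acids to auxin, rose by 2.39 and 2.22. EEL, a bZIP factor that binds promoters of LEA genes, was the 1 gene of abscisic acid signalling with a name, and it read 688, 628 and 780 and then 23.2, 20.7 and 14.5 (-4.33 ± 0.13). HYH, a relative of the light signalling factor HY5, rose from 28.4, 23.5 and 23.9 to 172, 135 and 166 (2.07), and SPT, a bHLH factor known to act in germination, from 15.6 to 192 (2.73). Over 16 bZIP genes 3 rose (18.8%) and 4 fell (25.0%), against 19.7% and 15.4% of all probe sets. On the AGAMOUS-like list of 42 genes 2 rose (4.76%), 3 fell (7.14%) and 33 were under 16 in both groups. The 2 that rose were AGL87 (2.25), of the MADS family, and SMZ (2.16), an AP2-type factor outside it. AGL67 stood out at 1036, 1170 and 996 in dry seed and 9.2, 6.42 and 5.79 at 48 h of light (-5.55 ± 0.10).

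Most ribosome biogenesis genes did not pass between the ends. Of 9 genes 1 fell, 0 rose and 8 did not pass, with a median of 0.03 that was -0.34 after quantile normalization and -0.28 after median centring. All 9 had a higher mean at 48 h of stratification than at either end, 7 of them by at least 1 log2 unit. PRH75, an RNA helicase, read 393, 729 and 626 in dry seed and 568, 581 and 575 at 48 h of light, and its mean was 2714 at 48 h of stratification. YAO, a nucleolar protein, had means of 89.2, 866 and 72.9 at these 3 points. RNA polymerase subunit genes also passed through higher levels, with 7 of 12 at least 1 log2 unit above both ends at some time between. Between the ends 7 of the 12 fell (58.3%, against 15.4% of all probe sets) and 1 rose, but 1 fell with 64 added. NRPB6A read 1259, 1157 and 1543 in dry seed, had a mean of 2420 at 1 h of light, and read 312, 320 and 291 at 48 h of light (-2.04). Over the array as a whole, 392 probe sets that did not change between the ends had a group between at least 2 log2 units above both, and 51 had one that far below.

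Of 7 cation/proton exchanger genes and 8 glutamate receptor-like genes 0 passed in either direction, and 6 of each were under 16 in both groups. Among genes over 1000 in both groups the smallest difference was that of AT5G64400, at 4143, 3849 and 4021 and then 4100, 4077 and 4179 (0.04 ± 0.04). Y14, of the exon junction complex, read 1276, 1260 and 1401 and then 1258, 1329 and 1165, with overlapping groups (-0.07).

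**Figure D5:**
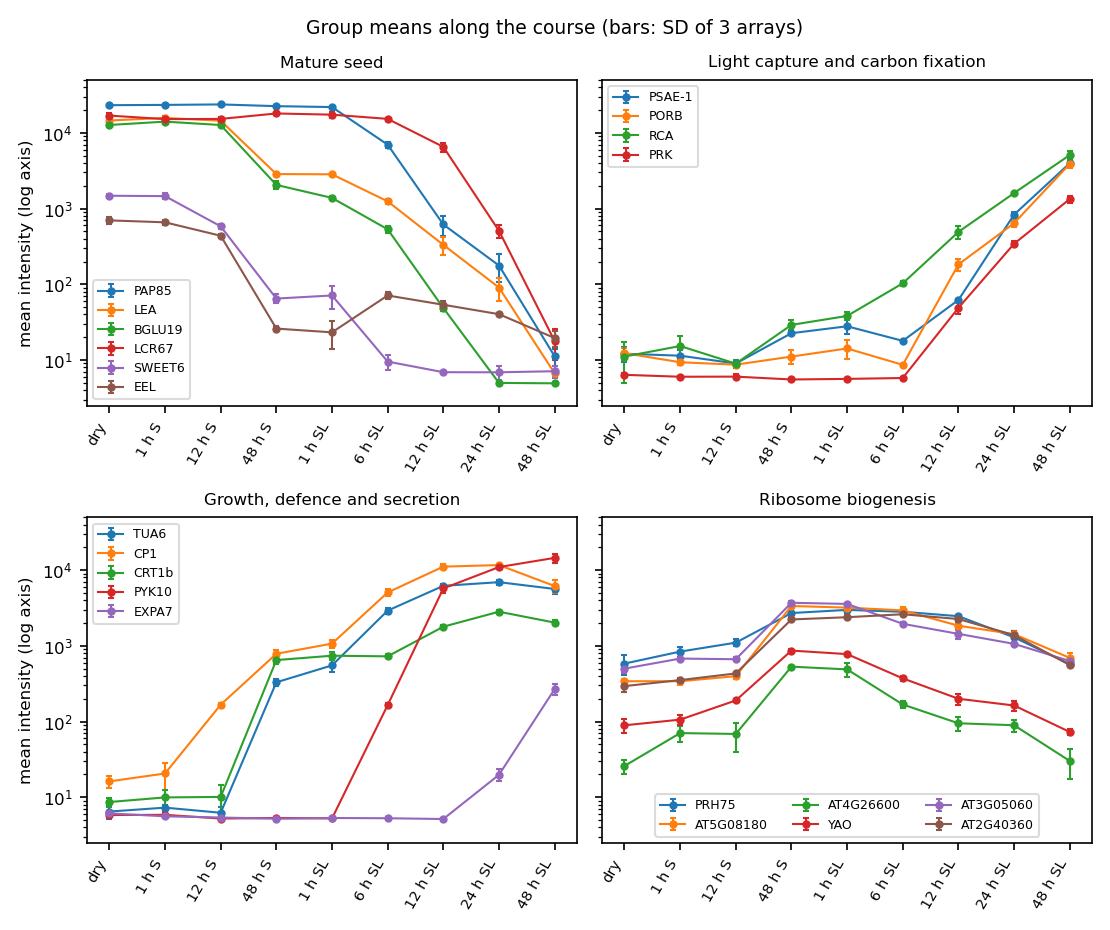
Mean intensity (log axis, bars are the SD of 3 arrays) of named genes in dry seed, at 1, 12 and 48 h of stratification (S) and at 1, 6, 12, 24 and 48 h of light (SL). Mature seed genes leave their dry level at different points, photosynthesis genes rise mainly from 12 h of light on, and ribosome biogenesis genes peak between both ends.

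The timing of each change was described by the first group from which a probe set's mean stayed past the midpoint between both ends on the log2 scale. Of the 4477 probe sets that were higher at 48 h of light, 1052 (23.5%) did so from 48 h of stratification, 883 (19.7%) from 24 h of light and 777 (17.4%) only at 48 h of light. Of the 3513 that were lower, 1028 (29.3%) passed it from 48 h of stratification, 696 from 24 h of light and 282 (8.03%) only at 48 h of light. Few had passed after 1 h of stratification, 15 and 28.

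By this measure, of the 7 storage and oil body genes 0 had passed the midpoint by the end of stratification, and 6 passed it at 6 or 12 h of light. The other passed it only at 48 h of light. In some group between, 1 of the 7 had a mean at least 1 log2 unit above both ends. The midpoint is not the start of a fall, since a large fall reaches it only after most of the intensity is lost. AT1G03890 of this list had gone from 1749 to 230 at 48 h of stratification, and LEA from 14584 to 2860. PAP85 was still at 21947 at 1 h of light, 6992 at 6 h, 617 at 12 h and 177 at 24 h. LCR67 was at 15325 at 6 h of light and 509 at 24 h. Others passed the midpoint early: SWEET6 was down to 64.8 and EEL to 26 at 48 h of stratification. Of 12 falling mitochondrial genes 8 had passed it by then, as had 5 of 9 ATG8 genes. cox2 was at 590 at 12 h of stratification and 81 at 48 h.

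Among rising genes TUA6 was at 330 and CRT1b at 649 at 48 h of stratification, while PRK was at 5.53 and PYK10 at 5.33. PYK10 then read 165 at 6 h of light, 5737 at 12 h and 10991 at 24 h on average. Of the 11 light harvesting genes that rose 7 passed the midpoint at 24 or 48 h of light, and 0 before light. PSAE-1 was at 17.9 at 6 h of light, 62 at 12 h and 833 at 24 h. LHCB4.1 had a mean of 179 in dry seed and its lowest mean, 18.7, at the end of stratification. The root hair gene EXPA7 was at 5.16 at 12 h of light and 19.8 at 24 h, so that nearly all of its rise fell in the last interval. CP1 had its highest mean, 11672, at 24 h of light, and TUA6, at 6940, did so too.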

How the data were processed

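The values are the intensities per probe set of the deposited series table, which the authors made with software that the submitters' processing notes list as MAS5, RMA and Partek, with no role or order given. They are linear and above 0, and the detection calls were not used. Controls were set aside, 16 was added and log2 taken. Groups were compared with limma 3.58.1 in R 4.3.3 (lmFit and eBayes, 1 mean for each of 10 groups over 30 arrays, 20 residual degrees of freedom), with Benjamini-Hochberg adjustment over all 22746 probe sets. Plots were drawn with matplotlib 3.10.9, and tables made with pandas 2.3.3 and numpy 2.4.6 under Python 3.11.15. The fit was tested on simulated data with known differences. Standard errors are those of limma. Other processing (added constants, normalization, dim probe sets, fewer arrays, a test against the size threshold) was tried as an alternative.

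Genes were named through the platform annotation and RefSeq gene names: 13513 probe sets named 1 gene, 503 several and 8730 none. A gene with several probe sets is given by the one with the highest mean over all 30 arrays. The comparison, the genes and the gene lists were chosen with earlier results of these data known, and 28 of the 59 lists were added after the annotation had been seen. Named were the 15 largest rises and falls with groups that did not overlap, per list up to 4 rises, 4 falls and the brightest member that did not pass, and the 6 smallest differences of bright genes. Other list members were named to complete a family or a marker check, after their values were seen. Promoter motifs were not analysed here.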

Additional observations from a re-analysis of the deposited data

How the results depend on the processing

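Over all probe sets, 41 of 43 recomputed counts stayed within 1.5 times the reported value. With dim probe sets left out fewer were tested (9325) and 2918 were higher, and a log2 difference of 2 left 4123 changed by construction. Leaving out 1 array at a time gave 7966 to 8045 changed, 4460 to 4533 higher and 3442 to 3571 lower. The share of changed probe sets that were higher was 56% as reported, 50.6% after quantile normalization, 46.5% after median centring (3776 higher, 4347 lower) and 48.2% with dim probe sets left out, so whether more probe sets rose or fell depends on the scaling. With the replicate number as a replicate block 7990 changed, in a balanced fit that leaves every difference as it was. Deviations from the group mean had correlations of -0.04, -0.06 and -0.03 between same-numbered arrays. The labels do not say what a replicate number stands for, and whether such arrays share a culture or batch was not tested. Of the recomputed differences of named genes 3844 kept direction and call, 81 kept direction and lost the call and 23 gained it, and 0 reversed. Without 1 array rbcL lost its call, as did AT1G72390 (-0.96) without replicate 3 of dry seed, VPS22 (0.98) without replicate 1 and EX1 (-0.97) without replicate 2. At 48 h of light BZIP60 (-0.98) lost it without replicate 1, EX1 (-0.91) without replicate 2, and LPA66 (0.94) and NRPE7 (-0.99) without replicate 3, each by the size threshold. Medians of gene lists near 0 turned sign with the scaling: TBL from 0.19 to -0.11, actin from 0.20 to -0.10, histones from 0.18 to -0.12 and organelle RNA editing from 0.06 to -0.24 after median centring. Signal over background limits the lowest genes, since 9107 probe sets were under 16 in both groups and a fall to that level is understated. The motif search in promoters and its alternative window were not run, since no sequence was used here.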
